A study of Mus musculus with 7 samples.

Results

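Translation initiation factors load the ribosome onto messenger RNA and set it at the start codon. The genes described here are the protein-coding rows of a brown fat count table whose names start with Eif and a digit from 1 to 6, without the eIF2 kinases (Eif2ak) and without the X- and Y-linked copies of the eIF2 gamma subunit (Eif2s3x, Eif2s3y). The rule gave 51 of the 55487 genes in the table, and it used names only, no measured value. Of these, 48 passed the filter on low counts. The other 3, Eif4a3l1, Eif4a3l2 and Eif4e1b, had at most 1 count in any library and are not compared.

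The RNA came from brown fat, a depot that burns lipid to make heat, of 7 mice of the diabetes-prone strain NOD/ShiLtJ. There were 4 CB-100 mice and 3 sham mice, which received KRBH buffer. CB-100 is the fraction above 100 kDa of buffer conditioned by brown adipocytes, injected under the skin for 7 days at 1.5 mg per kg once blood glucose lay between 190 and 230 mg/dL. For sham mice the labels give the same text. Tissue was taken 2 to 8 weeks after the injections, and neither the week nor the age of each mouse is given in the sources used here. The sample titles also carry nd for each CB-100 mouse and d for each sham mouse, a code that the labels do not spell out, so whatever it marks and the injection cannot be told apart.

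As background, a 43S complex forms when the small ribosomal subunit binds eIF1, eIF1A, eIF5, the multi-subunit scaffold eIF3, and eIF2 carrying the initiator methionyl-tRNA. The eIF4F complex, made of the cap-binding protein eIF4E, the scaffold eIF4G and the helicase eIF4A, brings that complex to the capped 5′ end of the message, where scanning begins. Cells tune these steps in a pair of well-known ways. Phosphorylation of the eIF2 alpha subunit blocks its recycling by the exchange factor eIF2B, and hypophosphorylated 4E-binding proteins sequester eIF4E when the kinase mTORC1 is inactive.

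Library totals ran from 10815101 to 28528471 counts. Values are CPM, counts relative to library size, scaled by the trimmed mean of M-values (TMM), log2 changes are CB-100 over sham, and adjusted p-values come from edgeR's quasi-likelihood test with Benjamini-Hochberg (BH) adjustment over 16823 genes at a threshold of 0.05. The coefficient of variation of the 48 tested members had a median of 11.8% in CB-100 and 9.15% in sham. Xist and 3 Y-linked genes placed 1 male in each group. In bulk tissue, fewer cells of a type and less RNA per cell cannot be told apart.

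Initiation factor genes were mostly lower in brown fat of CB-100 mice than of sham mice, and the subunits of eIF3 stood at the centre of the difference. Of the 48 tested members, 10 fell, 0 rose and 38 did not pass. Among all tested genes 3.7% passed, 2.28% lower and 1.42% higher, and among tested protein-coding genes 2.44% fell and 1.49% rose. The 10 that fell were 8 of the 14 eIF3 subunit genes and 2 genes of initiator tRNA delivery, Eif2s1 and Eif2a. At an unadjusted p under 0.05, 25 members were lower and 1 was higher in CB-100, against 12.2% and 11.7% of all tested genes (23.9% in either direction). DESeq2 called 16 members lower and 1 higher, and limma voom with quality weights 13 lower and 1 higher. Both called more of all 16823 tested genes than edgeR did, 1968 with DESeq2 and 1213 with limma voom against 622. Estimates lay below 0 for 42 of the 48, against 47.3% of all tested genes, and the median log2 change was -0.38, against 0.03 over all tested genes. The CB-100 and sham libraries did not overlap in 29 members on the lower side and 1 on the higher side, against 12.2% and 11.1% of all tested genes (23.3% in either direction). Protein-coding genes with a mean of at least 10 CPM numbered 8187. Of these, 276 fell and 137 rose, and 4376 estimates lay below 0 and 3811 above (median -0.03). At an unadjusted p under 0.05, 1376 of these genes were lower and 942 higher. Their groups stood apart on the lower side in 1381 and on the higher side in 912. The number of members that fell rests on the library set. With single CB-100 libraries left out it was 0 (replicate 1), 0 (replicate 2), 1 (replicate 3) and 9 (replicate 4), and with single sham libraries left out 0 (replicate 1), 5 (replicate 2) and 0 (replicate 3), while the median stayed between -0.43 and -0.35. All genes called, 622 with the full set, numbered 97, 24, 187 and 610 without CB-100 replicates 1 to 4 in turn. Without sham replicates 1 to 3 in turn they numbered 14, 319 and 8. In females only, 0 members and 0 of all genes passed, and 15 members were lower at an unadjusted p under 0.05. With sex as a covariate 3 members were called lower, and 238 of all genes were called.

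**Figure D1:**
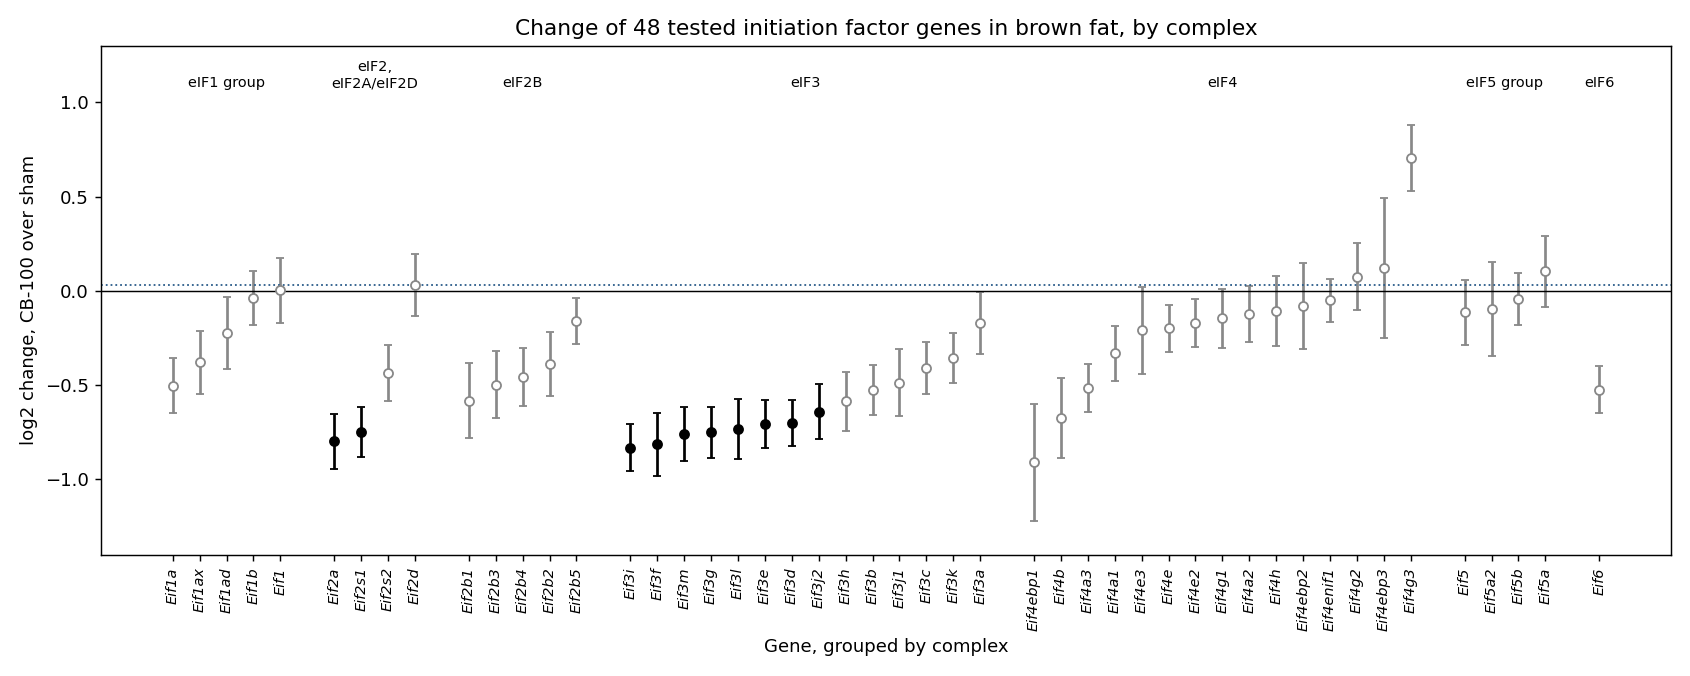
Log2 change of each tested initiation factor gene (CB-100 over sham, y axis), grouped by complex along the x axis. Points are edgeR estimates and bars are 1 SE. Filled points passed the test, and the dotted line is the median of all tested genes, 0.03. All 14 eIF3 subunits lie below 0, while the 4 genes of the eIF5 group lie between -0.11 and 0.10.

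The eIF3 complex, which bridges the small subunit and eIF4G, had lower messages for most of its subunits in CB-100. Each of the 14 subunit genes had an estimate below 0, 8 fell, and the median log2 change was -0.67. DESeq2 called 10 of the 14 lower and limma voom 9. The summed level of the 14 genes was 612, 592, 662 and 648 CPM in the 4 CB-100 libraries, against 888, 882 and 947 CPM in the 3 sham libraries. Their sum was thus 30.6% lower in the mean of CB-100, and no CB-100 library reached the lowest sham library. As a share of all initiation factor CPM, eIF3 took 18.7% ± 1.53 of the CB-100 total and 22.7% ± 0.587 of the sham total (SD, n = 4 and n = 3). Without sham replicate 3 the median log2 change of the complex was -0.58.

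Eif3i, a WD-repeat subunit of the eIF3b-g-i module, had the smallest p of the family. It stood at 25.3, 22.8, 26.9 and 27.5 CPM in CB-100, against 42.9, 48.8 and 45.3 CPM in sham. The highest CB-100 library lay well under the lowest sham library. The log2 change was -0.83 (SE 0.13, edgeR adjusted p = 0.022), a level 1.78-fold lower. Eif3i lies on chromosome 4 from 129591960 to 129600648 (GRCm38, minus strand). Its counts were whole in each library. Its partner Eif3g, an RNA-binding subunit, stood at 16.4, 19.3, 19.99 and 20.05 CPM in CB-100, against 28.8, 32.6 and 34.2 CPM in sham, a log2 change of -0.75 with an SE of 0.14 (edgeR adjusted p = 0.033). The third member of that module, Eif3b, the scaffold that holds them, ran from 62.5 to 75.4 CPM in CB-100 and from 89.0 to 102 CPM in sham. Its groups did not overlap either, but it stayed just outside the threshold (log2 change -0.53, edgeR adjusted p = 0.059). DESeq2 and limma voom called Eif3b lower.

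Within the 8 subunits that build the PCI/MPN core of eIF3, 4 fell (Eif3e, Eif3f, Eif3l and Eif3m) and 4 did not pass, with a median log2 change of -0.65. Eif3f, an MPN-domain subunit, had the lowest estimate of the core. It stood at 44.9, 44.2, 50.8 and 31.8 CPM in CB-100, against 71.0, 73.9 and 81.4 CPM in sham, a log2 change of -0.82 with an SE of 0.17 (edgeR adjusted p = 0.038). CB-100 replicate 4 was the lowest library here. Eif3m, a PCI-domain subunit, stood at 17.1, 17.3, 21.6 and 21.2 CPM in CB-100, against 33.6, 29.7 and 34.9 CPM in sham, a log2 change of -0.76 (edgeR adjusted p = 0.035). Eif3l stood at 54.4, 49.8, 62.2 and 48.4 CPM in CB-100, against 78.3, 82.9 and 107 CPM in sham, a log2 change of -0.73 (edgeR adjusted p = 0.043), with sham replicate 3 the highest. Eif3e, first known as the mouse mammary tumour virus integration site Int6, stood at 35.1, 39.6, 42.6 and 38.0 CPM in CB-100, against 64.3, 56.8 and 69.1 CPM in sham, a log2 change of -0.71 (edgeR adjusted p = 0.033). In each of these 4 genes the groups stood apart.

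Among core subunits that did not pass, Eif3h averaged 44.2 ± 7.05 CPM in CB-100 mice and 66.3 ± 6.50 CPM in sham mice (SD, n = 4 and n = 3; edgeR adjusted p = 0.068), and DESeq2 called it lower. Eif3c gave a log2 change of -0.41 and Eif3k one of -0.35. Eif3a, the largest subunit, was the one member of the complex whose groups overlapped. It stood at 147, 141, 139 and 189 CPM in CB-100, against 188, 171 and 160 CPM in sham, a log2 change of -0.17 with an SE of 0.16 (edgeR adjusted p = 0.57). CB-100 replicate 4 was the library that reached the sham range.

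Outside the core and the b-g-i module, Eif3d, a subunit with cap-binding activity on some messages in human cells, stood at 27.8, 29.3, 28.5 and 32.9 CPM in CB-100, against 46.7, 45.8 and 52.1 CPM in sham. Its log2 change was -0.70 (SE 0.12, edgeR adjusted p = 0.032). Eif3j1 and Eif3j2 encode closely related forms of the loosely attached eIF3j. Eif3j2 stood at 21.9, 24.2, 23.7 and 21.2 CPM in CB-100, against 37.8, 28.9 and 39.7 CPM in sham, and passed narrowly (edgeR adjusted p = 0.049). Eif3j1 averaged 9.62 ± 0.997 CPM in CB-100 mice and 13.5 ± 2.32 CPM in sham mice (edgeR adjusted p = 0.14). Both j genes had non-whole counts in each of the 7 libraries, so reads may have been divided between them and each level is uncertain. Non-whole counts also occur in Eif3c, Eif3d, Eif3e, Eif3h and Eif3m, whose levels are uncertain for that reason. Eif3d and Eif3m each share exonic bases with a gene on the opposite strand, Gm17638 and Ccdc73, which adds to the uncertainty.

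**Figure D2:**
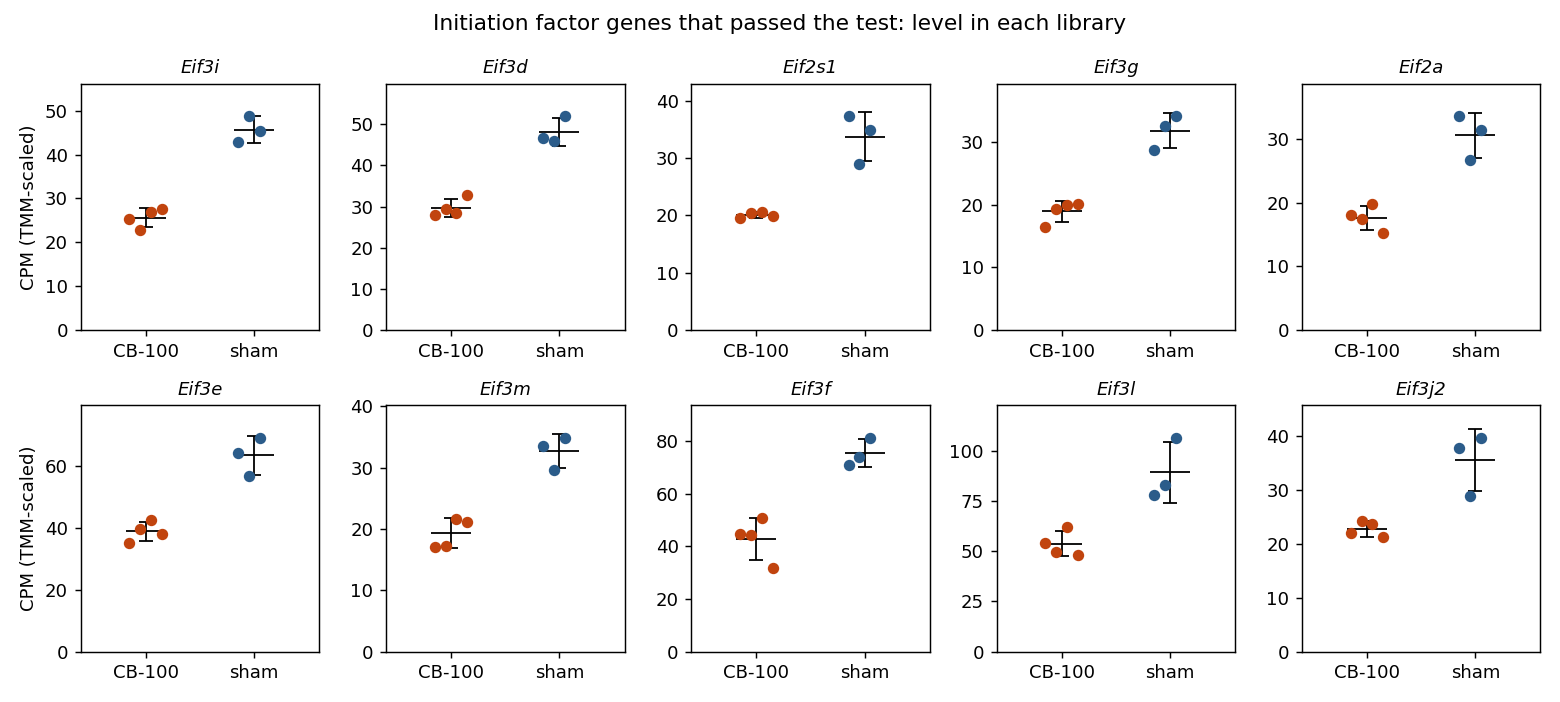
TMM-scaled CPM (y axis, from 0) of the 10 initiation factor genes that passed the test, in the 4 CB-100 (orange) and 3 sham (blue) libraries on the x axis. Each point is 1 library, and the bars give the mean and SD. In each panel the CB-100 points lie below the sham points, with the 4 Eif2s1 points of CB-100 within 19.5 to 20.6 CPM.

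Promoter sequence was available from RefSeq on GRCm38.p6 for 38 of the 51 genes, as windows of 300 bases with 250 before the start. The letters CCGGAAG on either strand, a core that ETS-family factors bind, occurred in 15 of these 38 genes (39.5%), against 9.93% of 27025 genes with a window, or 8.86% of all windows. They occurred in 5 of the 10 eIF3 genes with a window, and in 4 of the 5 of those that fell. Over all called members with a window they occurred in 4 of 7. Eif3e, Eif3i and Eif3j2 fell but have no window, and the motifs were chosen after values were seen. CACGTG, a palindrome bound by MYC and related factors, occurred in 10 of the 38 (26.3%), against 8.09% of genes, or 7.15% of all windows. Of these 10, edgeR called only Eif3f. TGATGNAA, searched on both strands as the letters of amino acid response elements that ATF4 binds, occurred in 0 of the 38, against 4.51% of genes. The 27025 genes were not limited to protein-coding genes or to genes tested here. They are thus unlike the members, and no share was taken over genes of similar expression. A match describes the letters only, and CCGGAAG and CACGTG cannot share a base.

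The stretches from 100 bases before the start to the 20th base from it are printed for the 5 eIF3 genes that fell and have a window. Eif4g3, whose estimate ran the other way, is printed too, and its window holds neither of the first 2 motifs. The windows of Eif2s1 and Eif2a, which fell, also hold neither. The printed genes were chosen after values were seen, so they do not relate a motif to a direction. Capitals mark CCGGAAG, its reverse complement CTTCCGG, or CACGTG, and each sequence reads 5′ to 3′ on the strand of its gene. They are Eif3d at chr15:77970805-77970924 (minus), Eif3g at chr9:20898571-20898690 (minus), Eif3l at chr15:79075123-79075242 (plus), Eif3m at chr2:105017008-105017127 (minus), Eif3f at chr7:108934315-108934434 (plus) and Eif4g3 at chr4:137993355-137993474 (plus).
Eif3d: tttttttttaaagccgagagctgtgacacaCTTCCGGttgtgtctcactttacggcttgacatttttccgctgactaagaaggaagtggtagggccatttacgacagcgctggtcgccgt
Eif3g: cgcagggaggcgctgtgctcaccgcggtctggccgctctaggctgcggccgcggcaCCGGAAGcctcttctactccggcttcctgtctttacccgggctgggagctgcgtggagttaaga
Eif3l: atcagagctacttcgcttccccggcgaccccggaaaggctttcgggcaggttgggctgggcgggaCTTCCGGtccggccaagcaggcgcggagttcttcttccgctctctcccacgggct
Eif3m: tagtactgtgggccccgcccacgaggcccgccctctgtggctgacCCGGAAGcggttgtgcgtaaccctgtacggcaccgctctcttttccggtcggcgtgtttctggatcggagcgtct
Eif3f: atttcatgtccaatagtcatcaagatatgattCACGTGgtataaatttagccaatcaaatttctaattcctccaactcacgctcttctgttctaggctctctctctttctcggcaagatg
Eif4g3: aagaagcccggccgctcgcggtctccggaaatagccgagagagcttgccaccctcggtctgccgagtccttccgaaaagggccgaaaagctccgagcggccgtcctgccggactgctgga

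The motif in Eif3g, Eif3l, Eif3m and Eif3d began 44, 35, 55 and 70 bases before the start, and that in Eif3f 68 bases before it. These 5 genes had log2 changes of -0.75, -0.73, -0.76, -0.70 and -0.82 in that order. Outside eIF3, 10 genes held the CCGGAAG letters, and edgeR called 0 of them. At an unadjusted p under 0.05, 1 (Eif2b4) was lower, against 12.2% of all tested genes. The groups stood apart on the lower side in 3 of these (Eif1ax, Eif2b2 and Eif2b4), also against 12.2%, and overlapped in 7. DESeq2 and limma voom also called 0 of the 10.

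Per kilobase of annotated exon, the eIF3 subunit messages differed widely among themselves in both groups. They ran from 1.65 (Eif3j1) to 27.4 (Eif3h) CPM per kb in CB-100 and from 2.31 (Eif3j1) to 41.1 (Eif3h) CPM per kb in sham, a 16.6-fold and a 17.8-fold range. Exon length here is the union of all annotated isoforms, which understates the level of genes with long unused exons. Across the whole family Eif1 and Eif5a stood highest, at 68.4 and 65.6 CPM per kb in CB-100 and 68.3 and 61.0 CPM per kb in sham. Next came Eif4g1, at 55.1 CPM per kb in CB-100 and 60.9 CPM per kb in sham. Eif2b3 (1.23 in CB-100, 1.74 in sham) and Eif5a2 (0.784 in CB-100, 0.840 in sham) stood lowest on the same scale.

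Of the 4 tested genes that bring the initiator tRNA, 2 fell and 0 rose. Eif2s1 encodes the alpha subunit of eIF2, the target of the stress kinases. It stood at 19.5, 20.5, 20.6 and 19.8 CPM in CB-100, against 37.4, 28.9 and 34.97 CPM in sham, a log2 change of -0.75 with an SE of 0.13 (edgeR adjusted p = 0.032). The 4 CB-100 libraries were nearly level and the groups did not overlap. Eif2s1 lies on chromosome 12 from 78861819 to 78887010 on the plus strand of GRCm38. Eif2s2, the beta subunit, stood at 22.04, 28.5, 21.4 and 27.4 CPM in CB-100, against 31.0, 34.0 and 35.6 CPM in sham, again apart, but did not pass (log2 change -0.43, edgeR adjusted p = 0.12).

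Eif2a encodes a separate factor that can deliver initiator tRNA to some messages, and shares no subunit with eIF2. It stood at 18.0, 17.4, 19.8 and 15.3 CPM in CB-100, against 33.7, 26.8 and 31.4 CPM in sham, a log2 change of -0.80 with an SE of 0.15 (edgeR adjusted p = 0.033). Its exons overlap those of Serp1 on the opposite strand, so its count is uncertain. Eif2d, another alternative delivery factor with a role in recycling, averaged 20.05 ± 2.74 CPM in CB-100 mice and 19.7 ± 2.73 CPM in sham mice, with overlapping groups (log2 change 0.03).

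None of the 5 subunits of eIF2B, which reloads eIF2 with GTP, passed edgeR's test, although each estimate was below 0 and 3 had an unadjusted p under 0.05. Lower at that level were 12.2% of all tested genes. DESeq2 and limma voom also called 0 of the 5. Their median log2 change was -0.46, and their summed level ran from 70.4 to 75.8 CPM in CB-100 and from 86.5 to 98.9 CPM in sham. Eif2b4, of the regulatory subcomplex, stood at 18.0, 14.9, 15.7 and 15.3 CPM in CB-100, against 18.1, 24.5 and 23.2 CPM in sham mice (edgeR adjusted p = 0.12, uncertain for non-whole counts and for Snx17 on the opposite strand). Eif2b1, the alpha subunit, stood at 11.7, 13.7, 14.3 and 8.74 CPM in CB-100, against 15.8, 17.7 and 20.8 CPM in sham, a log2 change of -0.58 (edgeR adjusted p = 0.12). Eif2b5, the catalytic subunit, overlapped between the groups (log2 change -0.16).

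The cap-binding side of initiation held no gene called by edgeR and had estimates in both directions, 12 below 0 and 3 above. Of 15 tested eIF4 genes none passed edgeR's test, 4 were lower and 1 was higher at an unadjusted p under 0.05, and the median log2 change was -0.15. Of all tested genes 12.2% were lower and 11.7% higher at that level. DESeq2 called Eif4a3 and Eif4b lower and Eif4g3 higher, and limma voom called Eif4a3 lower and Eif4g3 higher. The cap-binding protein gene Eif4e stood at 27.1, 24.7, 26.2 and 26.5 CPM in CB-100, against 28.4, 28.4 and 33.2 CPM in sham, a log2 change of -0.20 with an SE of 0.12 (edgeR adjusted p = 0.36). The groups stood apart, but by little. Eif4g1, the main scaffold, stood at 416, 396, 407 and 389 CPM in CB-100, against 427, 456 and 452 CPM in sham, a log2 change of -0.15 (edgeR adjusted p = 0.60).

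Eif4g3, a second eIF4G scaffold also known as eIF4GII, was the member with the highest estimate. It stood at 55.7, 59.9, 66.4 and 77.4 CPM in CB-100, against 40.4, 47.0 and 32.3 CPM in sham, so the lowest CB-100 value exceeded the highest sham value. It stayed just outside the threshold (log2 change 0.70, SE 0.17, edgeR adjusted p = 0.058). DESeq2, limma voom with quality weights and edgeR without a filter on low counts called it higher. Eif4g2, the eIF4G relative that lacks the eIF4E-binding part, averaged 418 ± 39.3 CPM in CB-100 mice and 397 ± 48.9 CPM in sham mice (log2 change 0.08).

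Of the 4E-binding proteins, Eif4ebp1 had the lowest estimate of the family and a wide spread. It stood at 70.0, 74.1, 75.8 and 32.5 CPM in CB-100, against 110, 87.7 and 158 CPM in sham, a log2 change of -0.91 with an SE of 0.31 (edgeR adjusted p = 0.12). The groups did not overlap, and CB-100 replicate 4 was far below the other CB-100 libraries. Without that library the log2 change was -0.69, and without sham replicate 3 it was -0.65. Eif4ebp2 was more abundant, at 321, 317, 276 and 189 CPM in CB-100 and 265, 255 and 353 CPM in sham, with overlapping groups (log2 change -0.08, edgeR adjusted p = 0.86). Eif4ebp3 averaged 2.19 ± 0.960 CPM in CB-100 mice and 1.98 ± 0.411 CPM in sham mice.

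Among the helicase and its helpers, Eif4a3, the relative of eIF4A found in the exon junction complex, stood at 18.5, 17.3, 18.3 and 20.8 CPM in CB-100, against 27.6, 26.2 and 26.6 CPM in sham. It came close to the threshold (log2 change -0.52, edgeR adjusted p = 0.056). Eif4a1, the main helicase, stood at 103, 124, 116 and 126 CPM in CB-100, against 143, 163 and 137 CPM in sham mice (edgeR adjusted p = 0.20). Its paralog Eif4a2 stood at 166, 202, 177 and 199 CPM in CB-100, against 197, 201 and 210 CPM in sham mice (edgeR adjusted p = 0.64), and its range overlapped. Eif4a1 and Eif4a2 host small nucleolar RNAs and had non-whole counts, which makes both uncertain. Eif4e also had non-whole counts, in 5 of the 7 libraries, and Eif4g1 hosts Snord66. Eif4b, which stimulates the helicase, averaged 164 ± 35.6 CPM in CB-100 mice and 262 ± 34.2 CPM in sham mice (log2 change -0.68, SE 0.21, edgeR adjusted p = 0.099). Eif4h, a related stimulator, overlapped between the groups (log2 change -0.11).

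**Figure D3:**
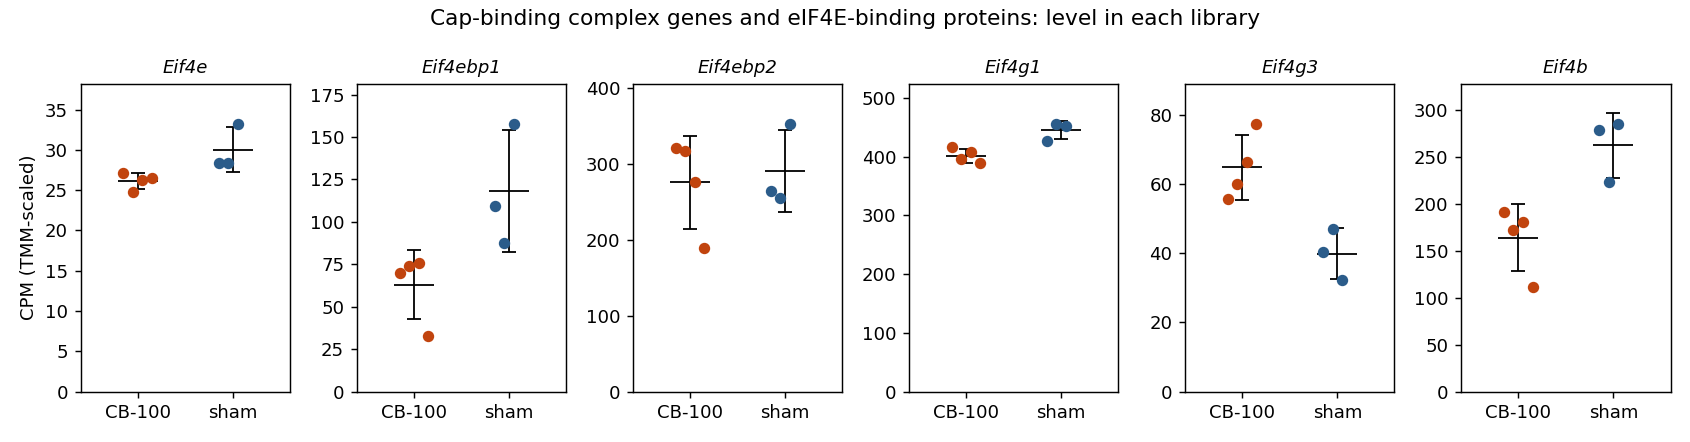
TMM-scaled CPM (y axis, from 0) of 6 genes of the cap-binding side in the 4 CB-100 (orange) and 3 sham (blue) libraries, with mean and SD. Eif4ebp1 and Eif4b lie lower and Eif4g3 higher in CB-100 without overlap of the points, while Eif4ebp2 overlaps. None of the 6 passed the test.

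The eIF5 group had the median nearest to 0, at -0.07. Of its genes, Eif5 acts at the start codon and Eif5b at subunit joining, while Eif5a and Eif5a2 are grouped with them by name. In this group 0 of 4 genes passed edgeR's test, and 0 had an unadjusted p under 0.05. DESeq2 and limma voom also called 0 of the 4. Eif5, the GTPase activator of eIF2, stood at 144, 117, 127 and 96.1 CPM in CB-100, against 115, 139 and 139 CPM in sham, a log2 change of -0.11 with an SE of 0.17 (edgeR adjusted p = 0.73). Eif5a, the hypusine-bearing factor that also aids elongation, stood at 187, 150, 161 and 125 CPM in CB-100, against 118, 163 and 154 CPM in sham, a log2 change of 0.10 with an SE of 0.19 (edgeR adjusted p = 0.78). Both ranges overlapped. Eif5b, which joins the subunits, gave a log2 change of -0.04 (SE 0.14), and Eif5a2 one of -0.10 (SE 0.25).

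In the eIF1 group 0 of 5 passed edgeR's test, with 1 lower at an unadjusted p under 0.05, against 12.2% of all tested genes. Eif1a, one of a pair of genes for eIF1A, stood at 16.2, 20.4, 22.1 and 21.8 CPM in CB-100, against 27.8, 29.9 and 27.97 CPM in sham, a log2 change of -0.50 (edgeR adjusted p = 0.082), and DESeq2 called it lower, the 1 call that DESeq2 made in this group, where limma voom made 0. Its X-linked partner Eif1ax stood at 25.3, 18.6, 26.6 and 29.4 CPM in CB-100, against 29.8, 34.8 and 33.1 CPM in sham, a log2 change of -0.38 (edgeR adjusted p = 0.21). Both genes held the groups apart, Eif1ax by the narrower gap. Eif1, the start codon gatekeeper, averaged 144 ± 22.1 CPM in CB-100 mice and 143 ± 16.7 CPM in sham mice. Eif6, which keeps the large subunit from joining too early, stood at 20.03, 18.2, 20.6 and 20.6 CPM in CB-100, against 27.3, 28.8 and 29.6 CPM in sham. The groups lay far apart for their spread, yet Eif6 stood at the edge of the threshold (log2 change -0.52, SE 0.12, edgeR adjusted p = 0.051), and DESeq2 and limma voom called it lower. Its exons overlap those of the antisense gene Gm16098, so its count is uncertain.

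**Figure D4:**
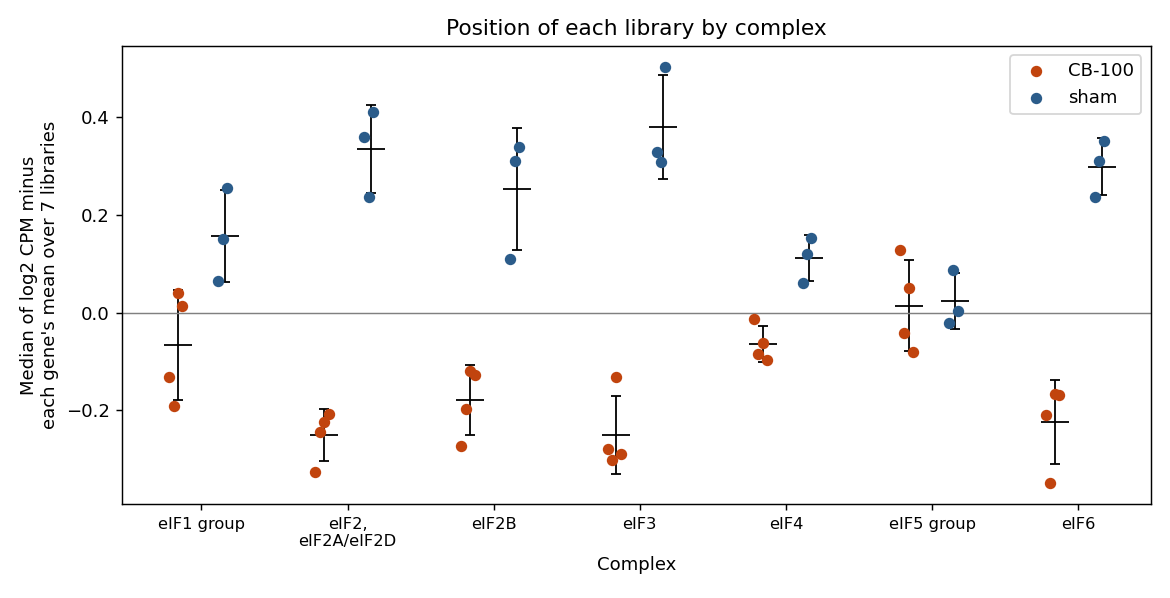
Position of each library by complex. The y axis is the median over a complex's tested genes of log2 CPM minus the gene's mean over the 7 libraries, and points are the 4 CB-100 (orange) and 3 sham (blue) libraries, with mean and SD. CB-100 lies below sham without overlap in eIF2, eIF2B, eIF3, eIF4, eIF6 and the eIF1 group, while the points of the eIF5 group overlap.

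Summed by complex, the CB-100 and sham ranges stood apart for eIF2 with eIF2A and eIF2D (81.2 to 83.6 against 111 to 123 CPM), eIF2B, eIF3 and eIF4, and for Eif6. They overlapped for the eIF1 group (178 to 234 against 217 to 250 CPM) and the eIF5 group (288 to 393 against 299 to 366 CPM). Over all tested members the sum averaged 3376 ± 184 CPM in CB-100 mice and 3988 ± 156 CPM in sham mice (SD, n = 4 and n = 3). The family was also expressed as a share of protein-coding counts without mitochondrially encoded genes. That share was 0.608% ± 0.0297 in CB-100 and 0.663% ± 0.0124 in sham, a smaller relative difference than in CPM. Beyond the genes already named as uncertain, Eif1, Eif1ad, Eif2s2, Eif4e3, Eif4ebp3, Eif4g2 and Eif5b had non-whole counts in each library and Eif2s1 and Eif5 in 1, and Eif2d shares exonic bases with Rassf5 on the opposite strand.

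Ratios of partner or paralog genes within a library do not depend on how libraries are scaled, and 10 were compared with a two-sided exact permutation test over samples, whose smallest possible p is 0.0286. The Eif4ebp1 to Eif4ebp2 ratio was 0.219, 0.234, 0.275 and 0.172 in CB-100, against 0.414, 0.344 and 0.447 in sham (exact permutation p = 0.0286, BH-adjusted p = 0.143 over the 10). The Eif4g1 to Eif4g3 ratio was 7.46, 6.60, 6.13 and 5.02 in CB-100, against 10.6, 9.70 and 14.0 in sham (exact permutation p = 0.0286, BH-adjusted p = 0.143). In both the groups stood apart in each of the 7 libraries, and neither passed after adjustment. Eif4e to Eif4ebp1 was 0.387, 0.335, 0.347 and 0.815 in CB-100, against 0.259, 0.324 and 0.211 in sham (exact permutation p = 0.0857, BH-adjusted p = 0.214), with CB-100 replicate 4 the highest. The other 7 ratios had an exact permutation p of at least 0.0571 and overlapped between the groups.

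Other genes of translation were read from lists of related factors. At an unadjusted p under 0.05, 12.2% of all tested genes were lower and 11.7% higher, and counts in the lists are to be read beside these shares. In the 6 genes for eIF2 kinases and their opposing phosphatase subunits 0 passed edgeR's test, 0 had an unadjusted p under 0.05, and the median log2 change was 0.02. Ppp1r15b, a phosphatase subunit, had the smallest p (log2 change 0.28, edgeR adjusted p = 0.37). In the 13 genes of mTORC1 and eIF4F signalling 0 passed edgeR's test, 1 was lower at an unadjusted p under 0.05, and the median was 0.04. That gene was Pdcd4, an inhibitor of eIF4A (log2 change -0.55, edgeR adjusted p = 0.13). DESeq2 and limma voom called 0 genes of either list.

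The 12 genes listed as accessory initiation and scanning factors include enzymes that modify translation factors, such as Dph5. Of the 12, 2 fell and 0 rose, against 2.28% lower and 1.42% higher among all tested genes. The median log2 change of the 12 was -0.29. Abce1, the ATPase that splits terminated ribosomes and stays on the small subunit during initiation, stood at 46.1, 44.9, 45.3 and 40.5 CPM in CB-100, against 74.5, 63.6 and 74.5 CPM in sham, a log2 change of -0.68 (edgeR adjusted p = 0.033). Dph5, an enzyme of the diphthamide modification of elongation factor 2, averaged 7.04 ± 0.834 CPM in CB-100 mice and 12.3 ± 1.32 CPM in sham mice (log2 change -0.80, edgeR adjusted p = 0.043). Both kept the groups apart.

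Of 9 elongation factors 0 passed edgeR's test, 3 were lower at an unadjusted p under 0.05, and the median was -0.30. Of all tested genes 12.2% were lower and 11.7% higher at that level, and no list was tested against these shares. Eef1g, a subunit of the exchange factor for eEF1A, had the smallest p (log2 change -0.63, edgeR adjusted p = 0.058), and was called lower by DESeq2, which also called Eef1a1, and by limma voom. In the 5 termination and recycling factors 0 passed edgeR's test, 1 was lower at an unadjusted p under 0.05, and the median was -0.14. Gspt1, the release factor eRF3a, missed the threshold by little (log2 change -0.50, edgeR adjusted p = 0.0501), and DESeq2 and limma voom called it lower. Poly(A)-binding proteins and partners gave 0 of 5 in edgeR's test, 1 higher at an unadjusted p under 0.05, and a median of -0.16. Pabpc4 was that gene (log2 change 0.49, edgeR adjusted p = 0.17), and DESeq2 and limma voom called 0 of the list. Mitochondrial translation factors gave 0 of 8 in edgeR's test, 2 lower at an unadjusted p under 0.05, and a median of -0.27, with Gfm1, an elongation factor, at a log2 change of -0.59 (edgeR adjusted p = 0.065), called lower by DESeq2, which also called Tufm, and by limma voom. Among these genes Eef1g, Eef1a1, Gspt1, Pabpc4, Ppp1r15b, Tufm and Dph5 had non-whole counts in some or all libraries, and Gfm1, Gspt1, Ppp1r15b and Dph5 share exonic bases with a gene on the opposite strand, so their counts are uncertain.

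Some properties of the libraries moved with the groups, and their part in these differences was not tested unless stated. Protein-coding genes held 76.2% to 80.0% of counts in CB-100 and 83.0% to 86.5% in sham, and mitochondrially encoded genes 22.3% to 36.3% in CB-100 and 14.3% to 22.8% in sham. With mitochondrially encoded genes left out, 10 members were called lower and the member median was -0.38. That run only takes these genes out of the scaling and the fit. Whether the differences go with the mitochondrial share of the libraries was not tested. The 5 Schwann cell markers summed to 110 to 113 CPM in CB-100 and 65.6 to 78.5 CPM in sham, each detected, and 1 of 5, Pmp22, rose (DESeq2 and limma voom also called Mbp higher). Skeletal muscle markers (10 genes) summed to 305 to 2291 CPM in CB-100 and 838 to 1887 CPM in sham, and 0 of them passed in edgeR, DESeq2 or limma voom. With their mean level as a covariate 0 members passed edgeR's test, 17 were lower at an unadjusted p under 0.05, 9 of all genes passed, and the member median was -0.33. The 10 adipocyte markers were all present, at 4624 to 8482 CPM in CB-100 and 5583 to 8999 CPM in sham. Of them edgeR called 0, with 2 lower and 1 higher (Dio2) at an unadjusted p under 0.05, against 12.2% and 11.7% of all tested genes. DESeq2 called Adipoq and Lipe lower, and limma voom called Adipoq lower. Estimates went both ways, 5 below 0 and 5 above, from -0.91 for Adipoq to 3.10 for Dio2 (SE 1.10). Elovl3 (2.50, SE 1.49) and Ucp1 (1.99, SE 0.98) were also above 0 but did not pass. Fabp4, with an estimate of -0.68 (SE 0.38), made the largest part of the sum, which therefore says little about the other markers. Macrophage (9 genes, 117 to 277 CPM in CB-100 and 139 to 218 CPM in sham) and endothelial markers (6 genes, 638 to 1479 CPM in CB-100 and 537 to 846 CPM in sham) overlapped between the groups as sums. So did lymphocyte markers (9 genes, 4.44 to 6.70 CPM in CB-100 and 3.48 to 7.35 CPM in sham), but their sum hides opposite estimates. Only 4 of these 9 genes passed the filter on low counts, and edgeR called 0. At an unadjusted p under 0.05, Trac was higher (estimate 2.32, SE 0.62) and Cd3e was lower (estimate -1.38, SE 0.60). The groups stood apart for Trac and overlapped for Cd3e. DESeq2 called Trac higher, and limma voom called 0 of the lymphocyte list.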

How the data were processed

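Brown fat RNA was isolated with a lipid tissue kit and sequenced on an Illumina NovaSeq, and reads went through STAR 2.7.9a against the primary assembly of Ensembl release 101, per the labels' protocols. Salmon 1.5.2, Subread with featureCounts 2.0.3, limma and edgeR also appear among the submitters' processing notes, without saying what each was used for. Strandedness and the counting settings were not found in these sources. One deposited table holds the authors' expected counts for each gene, unnormalized and partly non-whole. Of its 55774 lines, 287 repeated a gene identifier and were removed. Of the 55487 genes left, 99.5% matched GENCODE M21 on GRCm38, which gave coordinates, exon length, GC content and overlaps.

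Groups came from the treatment label, and replicates are numbered in the order of the samples. Nothing but the animal codes in the titles tells that replicates are separate mice, so p-values cover only the spread among these samples, which may be technical. Expected counts were rounded, filtered with filterByExpr, scaled by TMM (normalization factors from 0.755 up to 1.25), then analysed with edgeR 4.0.16 in R 4.3.3 (robust estimateDisp and glmQLFit, then glmQLFTest, two-sided, on group alone). The SE is the size of the log2 change over the square root of F. The code was tested on simulated counts. With 3 or 4 mice per group, the number of mice limits precision.

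The members, lists, ratios and alternatives were chosen with earlier results of these data known. Ratios used counts plus 0.5. Named are each called member, the 2 of smallest p in each complex, and Eif2s1, Eif4e, Eif4ebp1, Eif4ebp2, Eif4a1, Eif4a2, Eif4g1, Eif5a and Eif6 whatever their result; of each related list, the called members or the 1 of smallest p. Other members were added after their values were seen, to complete a complex. Motifs were likewise chosen after values were seen. Alternatives used DESeq2 1.42.0, limma 3.58.1 and mgcv 1.9.3.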

Additional observations from a re-analysis of the deposited data

Results flagged for a closer look

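Eif4ebp1 stood at 32.5 CPM in CB-100 replicate 4, against 70.0 to 75.8 CPM in the other 3 CB-100 libraries, and was singled out because its gap to the nearest of them is large for a group of 4. Chance does this for about 1 in 20 groups, and 25 named genes were examined.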

How the results depend on the processing

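The median of the initiation factor genes stayed between -0.43 and -0.33 under each alternative run, while the number called did not. The count lower in CB-100 was 16 with DESeq2, 16 at a threshold of 0.1, 3 with sex as a covariate, 0 with the skeletal muscle score as a covariate and 0 in females only, where 15 were lower at an unadjusted p under 0.05. The count higher was 1 with no filter on low counts, with DESeq2, with limma voom and at the threshold of 0.1. All genes called numbered 1968 with DESeq2, 1213 with limma voom, 1860 at the threshold of 0.1, 392 with length and GC correction, 238 with sex, 9 with the muscle score and 0 in females only. The eIF4 median was -0.19 with length and GC correction. Leaving out 1 library at a time gave 0 to 9 lower members, 8 to 610 genes called, an eIF1 median of -0.31 to -0.092 and an eIF3 median of -0.74 to -0.58. Some small differences changed sign. Over the single libraries left out, the log2 change ran from -0.17 to 0.077 for Eif4ebp2, with 0.066 without CB-100 replicate 4, and from -0.031 to 0.20 for Eif5a. The log2 difference of the ratios ran from -0.28 to 0.0010 for Eif4e to Eif4ebp2, -0.044 to 0.010 for Eif4e to Eif4e2, -0.094 to 0.15 for Eif1 to Eif1b and -0.054 to 0.43 for Eif5a to Eif5a2. In females only Eif4ebp2 gave 0.079 and Eif1 to Eif1b -0.035. Settings with fewer libraries or an added term leave fewer degrees of freedom, and otherwise the cause was not tested. No paired analysis was possible because the animal codes are not shared between the groups.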
